A study of Homo sapiens with 4 samples.

Results

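Breast cancer stem cell marker genes were followed in the lists of regions whose H3K4me3 changed when MDA-MB-231 cells were given the peptide Tat-SID. The set held 10 genes chosen by name, namely CD44, PROCR, PROM1, ALDH1A1, ALDH1A3, SOX2, SOX9, BMI1, KLF4 and NOTCH1, out of 64486 genes in the GENCODE annotation of GRCh37, 20176 of them protein-coding. A gene counted as reached when a changed region lay within 3 kb of its gene start or of the TSS of any of its transcripts, and otherwise the distance to the nearest region was taken. The MDA-MB-231 line, established from a human breast tumor, lacks the hormone receptors and HER2 (triple negative). H3K4me3 was profiled by native ChIP-Seq, in which chromatin cut with micrococcal nuclease is precipitated without crosslinking, in untreated cells, in cells given 1 μM Tat-SID and in cells given 2.5 μM Tat-SID. Each condition had 1 library, input DNA had 1 more, and the control cells received no peptide, so an effect of any Tat peptide and an effect of the SID sequence cannot be told apart here. In Tat-SID, a Tat-derived import sequence from HIV-1 is joined to the SIN3 interaction domain of MAD, and the peptide competes for the PAH2 domain of the SIN3 scaffold.

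The lists hold 141 regions reduced at 1 μM, 2063 regions reduced at 2.5 μM and 3 regions increased at 2.5 μM, all called by the authors against the same untreated library. They give the position of a region and no read number, so the size of a loss and the depth behind it cannot be read from them, there is no spread between replicates, and nothing was tested between conditions. A gene outside the lists may have kept its H3K4me3, lost too little of it to pass the threshold or had none in untreated cells, and the lists do not separate these. The library averages over all cells, so fewer cells with the mark and less mark per cell cannot be told apart either. Because the lists hold only changed regions, the line's own marker profile could not be checked.

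H3K4me3 is deposited around the start sites of transcribed genes, often as a domain that reaches further into the gene than upstream of it. Breast cancer stem cells are defined operationally, by surface antigens such as high CD44, by aldehyde dehydrogenase activity, and by the ability to seed tumors or spheres. The markers fall into surface receptors (CD44, which binds hyaluronan, PROCR, the endothelial protein C receptor, and PROM1, the CD133 antigen), enzymes that oxidize retinaldehyde (ALDH1A1 and ALDH1A3), and regulators of self-renewal. The last group holds the HMG-box factors SOX2 and SOX9, the zinc finger factor KLF4, the Polycomb repressive complex 1 subunit BMI1 and the receptor NOTCH1.

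At 2.5 μM Tat-SID, 2 of the 10 marker genes, BMI1 and CD44, had a region with reduced H3K4me3, and in both genes the region covered the gene start itself. At 1 μM, BMI1 was the only marker reached. Among all protein-coding genes the share reached was 10.8% at 2.5 μM and 0.674% at 1 μM, and among all annotated genes it was 5.3% and 0.36%. In a set of 10 genes, counts of 1 and 2 are too small to set the markers apart from these shares. The set was also chosen with earlier results of these data known. The study itself names CD44 among the promoters with reduced H3K4me3, from this same comparison. By a separate ChIP, it reports lower H3K4me3 at CD44 after knockdown of PF1, a SIN3-binding protein. It also reports lower ALDH activity and lower SOX2, NANOG and OCT4 protein after Tat-SID, which are measures other than H3K4me3. None of the markers lay near a region with increased H3K4me3, and the share of protein-coding genes near one was also 0%.

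The sequences just upstream of 4 of the gene starts are given to set the 2 reached promoters beside 2 that were not reached. They run 5′ to 3′ along the gene, over the 250 bases that end at the base before the gene start, in GRCh37. Capitals mark matches on either strand to 5 motifs: the GC box GGGCGG, the E-box CACGTG (which reads the same on both strands), the CCAAT box, the TATA box TATAAA and the AP-1 site TGACTCA. GC boxes that overlap run together.
BMI1, chr10:22609778-22610027, plus strand: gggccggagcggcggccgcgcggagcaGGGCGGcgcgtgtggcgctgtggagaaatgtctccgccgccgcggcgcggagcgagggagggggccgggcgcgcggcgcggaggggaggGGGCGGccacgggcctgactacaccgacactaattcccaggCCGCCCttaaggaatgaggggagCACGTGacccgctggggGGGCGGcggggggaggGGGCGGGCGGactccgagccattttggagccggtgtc
CD44, chr11:35160179-35160428, plus strand: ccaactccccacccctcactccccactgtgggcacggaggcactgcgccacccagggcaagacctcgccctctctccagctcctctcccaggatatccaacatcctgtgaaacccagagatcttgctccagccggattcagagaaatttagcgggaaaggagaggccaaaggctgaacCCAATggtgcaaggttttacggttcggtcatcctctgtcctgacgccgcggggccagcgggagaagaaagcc
NOTCH1, chr9:139440501-139440750, minus strand: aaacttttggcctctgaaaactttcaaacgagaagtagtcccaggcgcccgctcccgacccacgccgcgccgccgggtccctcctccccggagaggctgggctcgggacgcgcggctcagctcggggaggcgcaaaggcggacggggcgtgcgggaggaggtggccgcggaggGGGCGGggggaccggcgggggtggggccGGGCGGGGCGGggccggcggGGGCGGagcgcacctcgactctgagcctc
ALDH1A1, chr9:75695359-75695608, minus strand: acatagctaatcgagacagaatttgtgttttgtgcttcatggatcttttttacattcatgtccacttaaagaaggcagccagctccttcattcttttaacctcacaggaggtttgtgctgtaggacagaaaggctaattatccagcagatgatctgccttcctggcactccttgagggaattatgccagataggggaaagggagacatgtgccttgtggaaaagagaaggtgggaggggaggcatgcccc
The BMI1 stretch is 76.8% G and C with 35 CpG dinucleotides, and the NOTCH1 stretch is close to it with 76% and 33. The CD44 stretch has 60% and 11 CpG. ALDH1A1 has 46.4%, a single CpG (1 in 250 bases) and none of the 5 motifs. Its gene start is that of an outer transcript, 127 kb from the canonical TSS, where the window of 250 bases before to 50 after held 1 CCAAT match.

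BMI1 represses the CDKN2A locus as part of Polycomb repressive complex 1 and sustains self-renewal of several stem cell types. Its gene (ENSG00000168283) runs on chromosome 10 from 22610028 to 22620413 on the plus strand. The reduced region ran from 22602951 to 22616249, a length of 13299 bp, and its bounds were the same at 1 μM and at 2.5 μM. It began 7077 bp upstream of the BMI1 start and ended 6221 bp downstream, over exons 1 to 3 of the 10 exons of the canonical transcript, introns 1 and 2 and 54.9% of intron 3. Of the 10 annotated BMI1 start positions, 8 were inside the region. The other 2, at 6783 and 6847 bp from the gene start, lay just past its downstream edge.

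The BMI1 region was not the territory of BMI1 alone. COMMD3, which encodes a COMM domain protein, starts 4713 bp upstream of BMI1 on the same strand and lay wholly inside the region. The read-through gene COMMD3-BMI1 starts 2 bp after COMMD3, and the region covered 83.1% of it. Loss of H3K4me3 at the COMMD3 start and at the BMI1 start cannot be told apart within a single region. Of the 141 regions reduced at 1 μM, 34 (24.1%) had the same bounds on the 2.5 μM list. Among the 17 regions at 1 μM that were at least as long as that of BMI1, the number was 5.

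**Figure D1:**
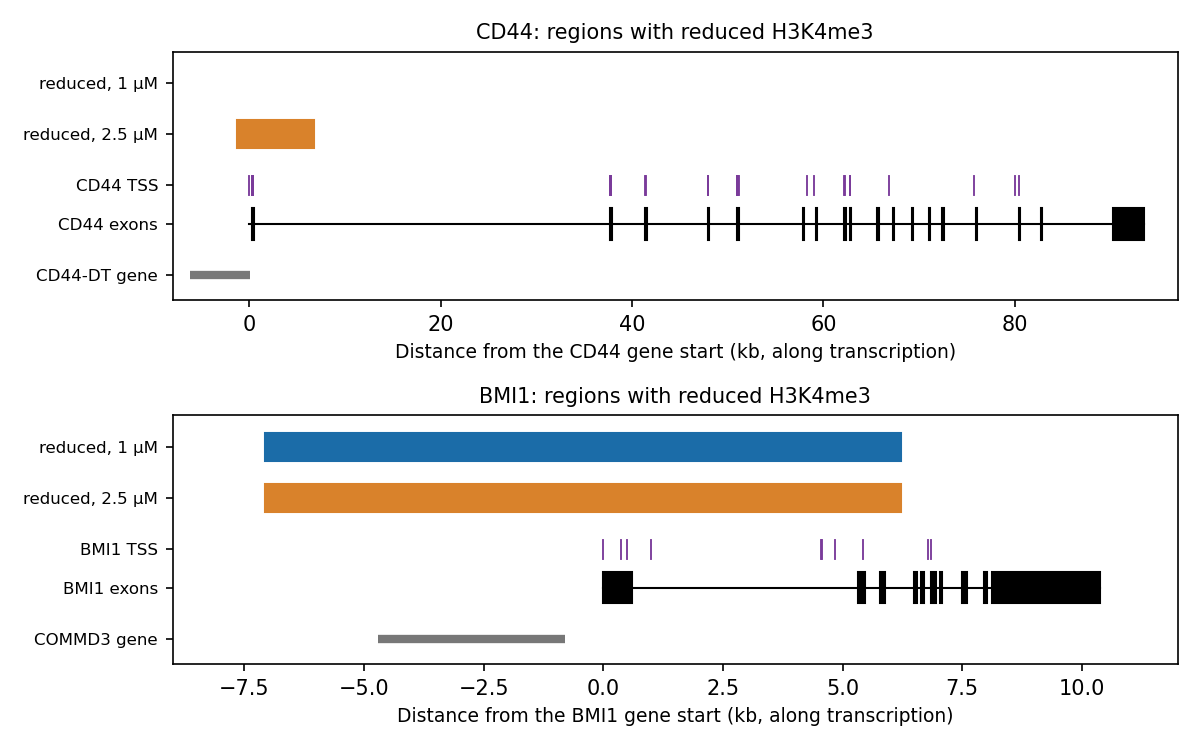
Regions with reduced H3K4me3 at CD44 and BMI1, drawn as bars (1 μM blue, 2.5 μM orange) against the distance from the gene start in kb, with the exons of the canonical transcript as black boxes, annotated TSS as purple ticks and the neighboring gene in gray. The CD44 bar covers the first cluster of TSS and none of the later ones, while the BMI1 bars are alike at both doses and span COMMD3.

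CD44 is the hyaluronan receptor whose surface level helps define breast cancer stem cells. The gene (ENSG00000026508) lies on chromosome 11 from 35160429 to 35253949 on the plus strand. Its region at 2.5 μM ran from 35159151 to 35167199, 8049 bp in all, with 1278 bp upstream of the gene start and 6770 bp downstream. It covered the 200 bp of exon 1 of the canonical transcript, which begins 289 bp into the gene, and 6282 bp of an intron 1 of 37204 bp. The region also held the start of CD44-DT, a long non-coding RNA gene that begins 69 bp inside CD44 and runs the opposite way.

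CD44 has 35 annotated start positions, more than any other marker, and the region held 10 of them, all within 424 bp of the gene start. The other 25 start between 37693 and 80462 bp downstream, and no reduced region lay there at either dose. At 1 μM the region nearest to CD44 lay 508 kb upstream, over the start of EHF, an epithelial ETS factor, and that site was on the 2.5 μM list as well.

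Both regions were long for their lists. The median length was 4949 bp at 2.5 μM, where the CD44 region ranked 188th of 2063 (90.6% were shorter) and the BMI1 region ranked 21st (99% were shorter). At 1 μM the median was 8599 bp, and BMI1 ranked 17th of 141.

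**Figure D2:**
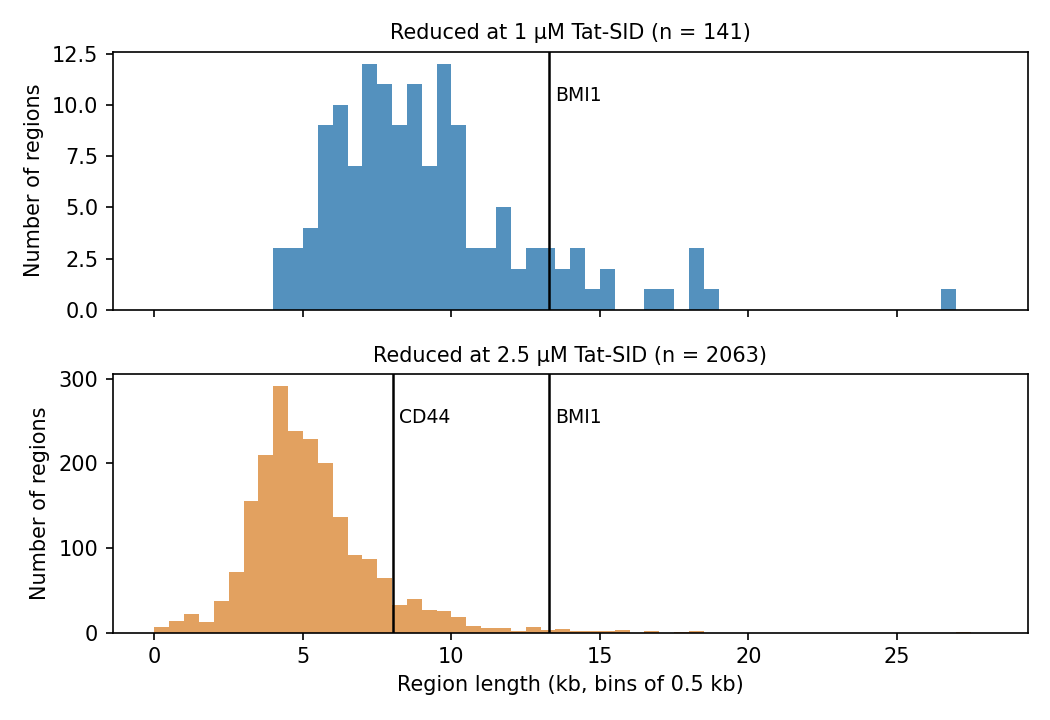
Number of reduced regions by length in kb (bins of 0.5 kb) at 1 μM and at 2.5 μM Tat-SID, with vertical lines at the regions of CD44 and BMI1. Both lines fall in the right-hand tail of the 2.5 μM list, and BMI1 also lies right of most regions at 1 μM.

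The 2 regions differed in how they lay on their genes. Over the 1853 protein-coding gene starts that a 2.5 μM region covered, the median extent was 1744 bp upstream and 3200 bp downstream, and the downstream side was the longer in 77.4%. CD44 had that shape, with a long downstream side. Its extent upstream was above that of 31% of these starts, and its extent downstream was above that of 95%. BMI1 reached further upstream than 99% of them and further downstream than 92.5%, and COMMD3 lies on its upstream side. The base composition differed too, with a ratio of observed to expected CpG of 0.835 over the BMI1 region and 0.269 over the CD44 region at similar GC contents of 45.8% and 48.6%.

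**Figure D3:**
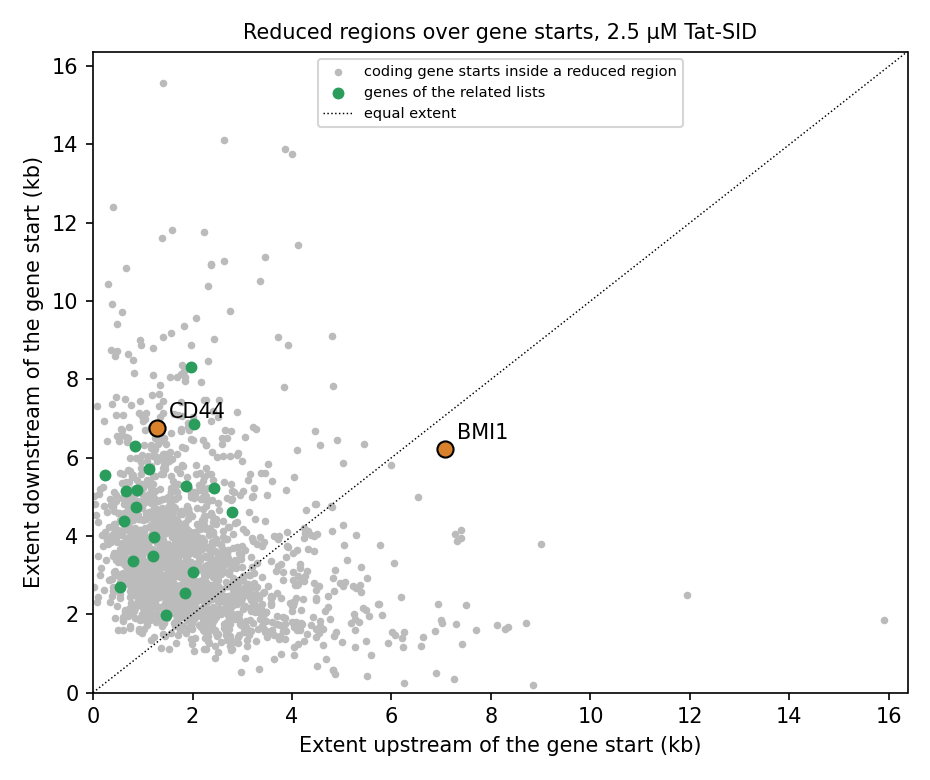
Extent of the reduced region upstream (x axis, kb) and downstream (y axis, kb) of each of the 1853 protein-coding gene starts covered at 2.5 μM Tat-SID, with genes of the related lists in green and CD44 and BMI1 in orange. CD44 lies above the dotted line of equal extent among genes with long downstream sides, and BMI1 lies apart, to the right, with 7077 bp upstream of the start.

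The other 8 markers were not reached at either dose, and no region lay close to the 3 kb window of any of them. The closest, ALDH1A1, was 51.1 kb away at 2.5 μM and NOTCH1, the farthest, 5683 kb. Their median distance was 372 kb, against 475 kb over the 17920 protein-coding genes that were not reached. At 1 μM the 9 markers not reached were between 70.3 kb and 18926 kb from a region. No reduced region overlapped the body of any of these 8 genes.

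Of the surface receptors, PROM1 was the closer to a region. The nearest one at 2.5 μM lay 140 kb upstream of its gene start on chromosome 4, from 16225601 to 16229999 over the start of its neighbor TAPT1, with no protein-coding start in between. A second site, over the paired starts of FBXL5 and FAM200B 400 kb downstream of the PROM1 start, was on both lists. PROCR, on chromosome 20, was 277 kb from the nearest region, which held the starts of CEP250 and GDF5, and 6 protein-coding genes start between them. Within 1 Mb of the PROCR start there were 4 reduced regions at 2.5 μM and none at 1 μM, among 36 other protein-coding gene starts.

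The aldehyde dehydrogenases stood differently. The gene start of ALDH1A1 on chromosome 9, at 75695358 on the minus strand, was followed upstream by a reduced region of 2299 bp (from 75746501 to 75748799) that holds no annotated TSS. A second region, 70.3 kb from the gene start, covered the start of ANXA1, which encodes the phospholipid-binding protein annexin A1, from 75765701 to 75772199 at both doses. From the canonical ALDH1A1 TSS, further into the gene, the nearest 2.5 μM region was 179 kb away. ALDH1A3, on chromosome 15, was 1625 kb from a region, over the starts of LRRC28 and TTC23, and had none within 1 Mb.

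Among the transcription factors, KLF4, which serves in the reprogramming of somatic cells to pluripotency, was 202 kb from a region over the start of RAD23B on chromosome 9, and no protein-coding gene starts between them. SOX9, a regulator of mammary stem and luminal progenitor cells, was 467 kb from a region that held an internal TSS of the long non-coding RNA gene LINC00511 on chromosome 17, again with no protein-coding start in between. SOX2, a core pluripotency factor, was 1289 kb from a region with no annotated TSS on chromosome 3, and 4 protein-coding genes start between them. These are sparse neighborhoods, with 2 other protein-coding starts within 1 Mb of KLF4, 2 near SOX2 and 1 near SOX9.

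NOTCH1, a receptor of the Notch pathway, was the opposite case. It lies on chromosome 9 among 79 other protein-coding starts within 1 Mb, and none of these genes was reached at 2.5 μM. The nearest region, 5683 kb away, held an internal TSS of ABL1, and 84 protein-coding genes start in between. Of the protein-coding genes that were not reached, 97.1% were nearer to a region than NOTCH1.

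**Figure D4:**
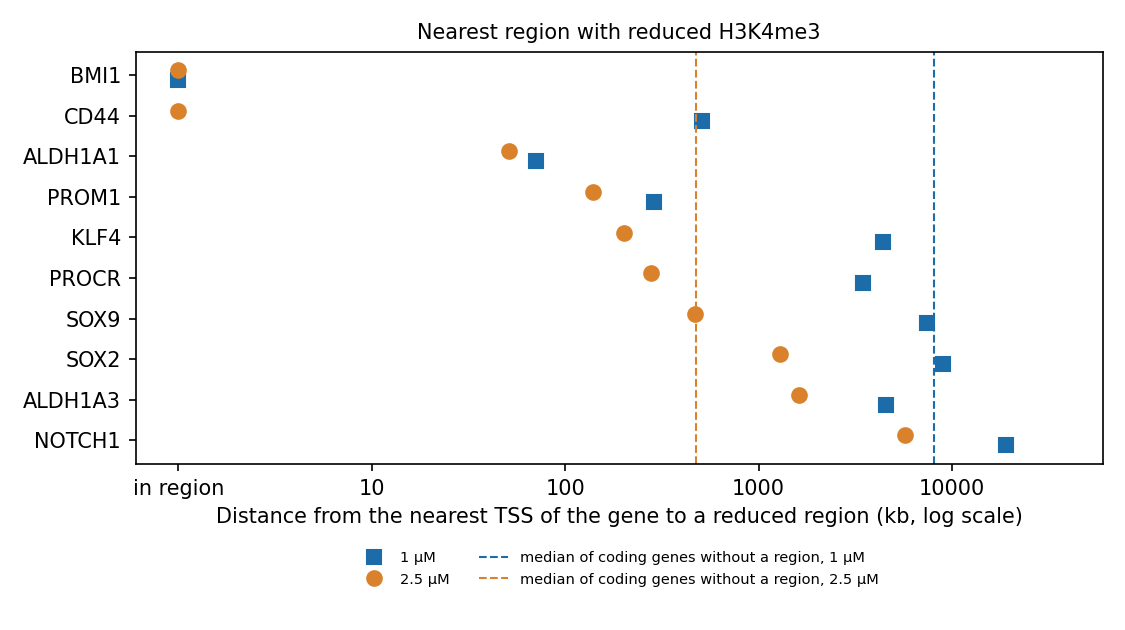
Distance in kb (log scale) from the nearest TSS of each marker gene to a region with reduced H3K4me3 at 1 μM (blue squares) and at 2.5 μM (orange circles), with genes whose TSS lay in a region placed at the left. BMI1 is at the left for both doses and CD44 for 2.5 μM, and the dashed lines are the medians over protein-coding genes that were not reached.

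The markers also differ in the number of their start positions and in base composition. Among protein-coding genes, 4.72% of those with 1 start position were reached at 2.5 μM, the class of SOX2 and SOX9. The share was 15.5% with 10 to 19, the class of BMI1, PROM1 and NOTCH1, and 18.4% with 20 or more, the class of CD44. The gene start itself lay in a region in 9.18% of protein-coding genes, BMI1 and CD44 among the markers. Counted in this way, with 1 position per gene, the share still rose with the number of start positions, from 4.56% in the class of SOX2 and SOX9 to 12% in that of BMI1 and 13.4% in that of CD44.

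GC and CpG content was computed 1 kb on each side of the gene start. GC content was highest at NOTCH1 (73.4%) and BMI1 (70.6%), followed by SOX9 (63.1%), KLF4 (61.2%), SOX2 (59.7%) and CD44 (55%). It was lower at PROM1 (52.4%), ALDH1A3 (52%) and PROCR (48%) and lowest at ALDH1A1 (41.5%). The median of all protein-coding genes was 55%. A CpG promoter, with a GC content over 50% and an observed to expected CpG ratio over 0.6, was found at 5 markers (SOX2, SOX9, BMI1, KLF4 and NOTCH1), and at 47% of protein-coding genes. Of protein-coding genes with such a promoter 14.8% were reached at 2.5 μM, and of the others 7.31%. By GC content alone the order was another one, with the lowest share, 7.4%, in the highest of 5 classes of like size (61.9% to 79.6% GC), which holds SOX9, BMI1 and NOTCH1, and 9.97% to 13.9% in the other classes. BMI1 was thus the reached member of the CpG class, and CD44, with a ratio of 0.519, was reached without belonging to it. At the TSS of the canonical transcript, PROM1 and ALDH1A3 joined the CpG class and CD44, at 0.481, stayed outside it. There the GC content of ALDH1A3 was 71.1%, and the class held 7 of the 10 markers and 51.4% of protein-coding genes.

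In the 300 bases from 250 before to 50 after the gene start, counted on both strands, the BMI1 promoter held GGGCGG 6 times and CACGTG once (1 match), at 70 to 65 bp upstream. The E-box CACGTG, the sequence bound by MYC-MAX and MAD-MAX dimers, occurs in 8.33% of the 20098 protein-coding promoters of that length and in this window in no other marker. GGGCGG occurs in 52.2% of promoters and was also present at NOTCH1 (4 matches), PROCR and SOX9 (2 each) and SOX2 (1). CCAAT, found in 35.8%, was present at CD44, PROM1, SOX2 and SOX9, and the CD44 match lay 72 to 68 bp upstream of the gene start. TATAAA, found in 10.9%, was present at PROCR, 82 to 77 bp upstream on the opposite strand. TGACTCA, the AP-1 site found in 3.98%, was present at no marker. No motif was shared by the 2 reached promoters in this window at the gene start. At the TSS of the canonical transcript, the window of CD44 held GGGCGG 2 times, that of BMI1 6 times, and those of ALDH1A3 (6) and KLF4 (4), which were not reached, held it as well. CACGTG was also present there at KLF4, with 1 match.

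To place the markers among their partners, 9 lists of related genes were read in the same way. Of 166 genes, 165 carried these symbols in the annotation (CD24 did not). Of these, 28 (17%) were reached at 2.5 μM and 3 at 1 μM. The shares of protein-coding genes were 10.8% and 0.674%. The lists were written with earlier results of these data known, so the difference was not tested and cannot be read as an enrichment. The region covered the gene start in 19 of the 28. No gene of these lists was near an increased region.

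Partners of CD44 were reached in 4 of 17 cases (23.5%) at 2.5 μM, against 10.8% of protein-coding genes, which was not tested. The regions of HAS2 (5199 bp), HMMR (4399 bp) and RDX (5099 bp) covered the gene start. These genes encode a hyaluronan synthase, a second hyaluronan receptor and the ERM protein radixin, which links CD44 to actin. The HMMR region also held the start of NUDCD2, so the loss cannot be assigned to HMMR alone. MSN, which encodes moesin, was reached away from its gene start at both doses. The MSN region measured 10149 bp at 2.5 μM and 10449 bp at 1 μM. At 2.5 μM it held 8 of the 14 annotated start positions. Other surface markers were reached in 2 of 17 cases (11.8%), near the share of protein-coding genes. The ITGA6 region (5799 bp), at the gene of the CD49f integrin, covered the gene start. ITGB1, its β1 partner, was reached at both doses, 45.2 kb from the gene start at 2.5 μM. That region held 19 of the 25 annotated ITGB1 start positions.

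PROCR was not reached. Of 12 genes of the protein C and tissue factor pathway, 4 (33.3%) were reached at 2.5 μM, against 10.8% of protein-coding genes, which was not tested. These were THBD (7399 bp), which encodes thrombomodulin, F3 (7649 bp), tissue factor, F2RL1 (5799 bp), the protease-activated receptor PAR2, and TFPI, the tissue factor pathway inhibitor. The first 3 had the region over the gene start. TFPI was reached at later starts, with 7799 bp at 2.5 μM and 11299 bp at 1 μM. The TFPI region at 2.5 μM held 6 of its 11 start positions.

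NOTCH1 was not reached. Of 34 other Notch pathway genes, 7 (20.6%) were reached at 2.5 μM, against 10.8% of protein-coding genes, which was not tested. MAML2 (7149 bp) and MAML3 (5599 bp), coactivators of the Notch transcription complex, NUMB (4999 bp), an inhibitor of the receptor, and ADAM10 (4699 bp), the protease that makes the S2 cut, had a region over the gene start. NUMB had a second region of 2549 bp just upstream of its start. NOTCH2, NOTCH4 and RBPJ were reached at a TSS 26.8 to 155 kb from the gene start. Their regions held 4 of 10 start positions of NOTCH2, 1 of 5 of NOTCH4 and 23 of 43 of RBPJ. The NOTCH4 region also held the starts of PBX2 and GPSM3. None of the ligands JAG1, JAG2, DLL1, DLL3 and DLL4 and none of the target genes HES1, HES5, HEY1, HEY2 and HEYL on the list was reached. HES7, which the list does not hold, was looked up after its value was seen. Its gene start lay in a region, with 3275 bp upstream and 6723 bp downstream. The ALOXE3 start had 8334 bp upstream and 1664 bp downstream, which match the same region length. Both starts may share the region, so the loss cannot be assigned to HES7.

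Of 21 other Polycomb repressive complex 1 genes, the partners of BMI1, 1 (4.76%) was reached at 2.5 μM. This was PHC2, with a region of 8849 bp. That region lay 79.6 kb from the PHC2 gene start and held 5 of its 13 start positions. Of 17 further aldehyde dehydrogenases, 2 (11.8%) were reached, ALDH3A2 (4149 bp) and ALDH7A1 (3249 bp). Of 17 SOX genes, 2 (11.8%) were reached, SOX4 (6849 bp) and SOX6 (3449 bp). KLF genes were reached in 5 of 16 cases (31.2%). The regions of KLF6 (10299 bp), KLF3 (7149 bp) and KLF9 (6049 bp) covered the gene start. The KLF5 region began 687 bp downstream of the gene start, inside the 3 kb window, and KLF7 was reached at later starts. Of 14 pluripotency factors, NANOG and POU5F1 among them, only MYC (8899 bp) was reached (7.14%). Among all protein-coding genes the share was 10.8%. These lists are short and none was tested.

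**Figure D5:**
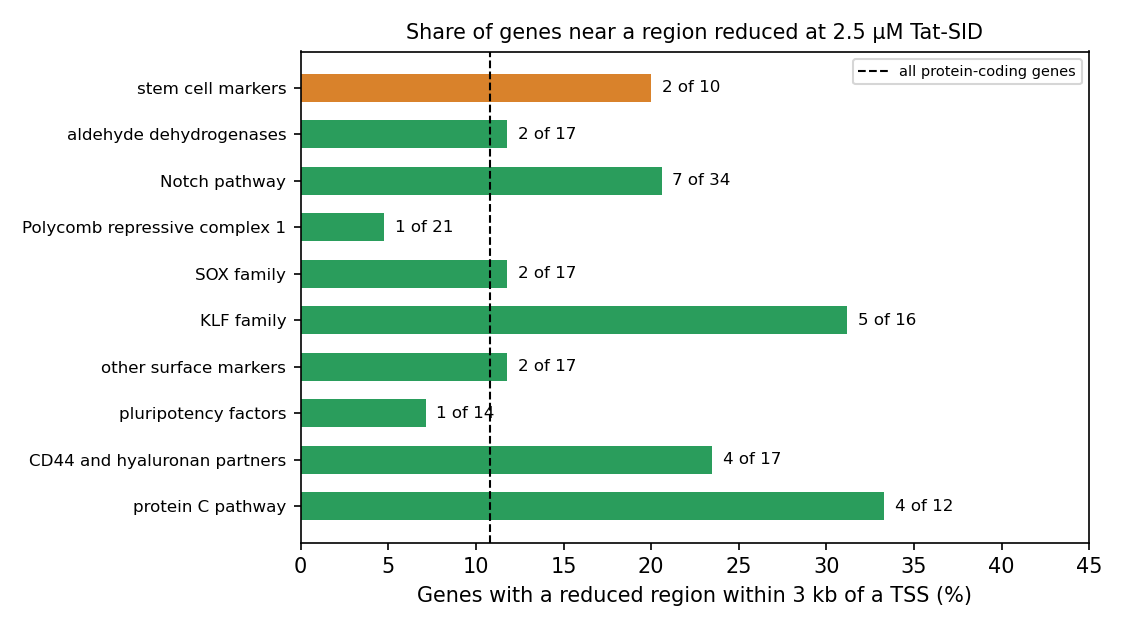
Percent of genes reached by a reduced region (3 kb rule) at 2.5 μM Tat-SID in the marker set (orange) and in each related list (green), with the number of genes beside each bar. The dashed line is the share of all protein-coding genes, 10.8%, and the lists lie on both sides of it.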

How the data were processed

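H3K4me3 ChIP libraries of MDA-MB-231 cells (untreated, or given Tat-SID at 1 or 2.5 μM) and input DNA were sequenced. Per the submitters' processing notes and the study's methods, reads were checked with FastQC (0.10.0), aligned to hg19 (GRCh37) with Bowtie (1.0.0) and compared with SICER. The deposited lists hold chromosome, start and end only. The FDR threshold in the list names is 1e-15, the one given in the study's results and stricter than its methods state. Starts fall on a 50 bp grid and no region ends beyond its chromosome in GRCh37. Positions are printed from 1.

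The GRCh37 mapping of GENCODE release 44 gave genes, exons and TSS, and the GRCh37 assembly gave the sequences. The gene start is the first base of the gene on its strand. A region counted when at least 1 bp lay within 3 kb of a TSS. Gene counts were checked with bedtools (2.31.1), which gave equal numbers, and the functions were tested on simulated regions. No test was run. Members and lists were chosen with earlier results of these data known. All 10 members are named. Of the related lists, genes reached at 1 μM and up to 4 per list with a region over the gene start, by length, are named, and genes reached elsewhere were named after their values were seen, as were genes sharing or neighboring a region. Python 3.11.15, numpy 2.4.6, scipy 1.17.1, pysam 0.24.0 and matplotlib 3.10.9 were used.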

Additional observations from a re-analysis of the deposited data

How the results depend on the processing

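The marker genes reached were BMI1 at 1 μM, and BMI1 and CD44 at 2.5 μM, under each of 7 alternatives: a window of 10 kb, of 1 kb or the TSS base itself, the gene start only, TSS of protein-coding transcripts only, TSS of the GENCODE basic set only, and regions of at least 1000 bp only. None of the markers came near an increased region under any of them. The number of related genes reached at 2.5 μM was 20 to 29, with 28 as reported. The share of protein-coding genes reached at 2.5 μM, 10.8%, rose to 11.6% with a window of 10 kb and fell to 9.5% with the gene start only, and at 1 μM the share, 0.674%, was 0.496% with the gene start only. These 3 values lay outside the exact Clopper-Pearson 95% interval of the reported share, which served only as a yardstick. All settings count the same genes and lists, so the interval does not measure a spread between settings. The 10 kb setting widens the window, and the gene start setting counts fewer positions. The single BMI1 region at 1 μM also met an overlap of at least 50%. The promoter composition at the canonical TSS was added after the data were seen. A stricter threshold of the authors was not run, since regions carry no score in the deposited lists. No paired analysis was possible because there was 1 library for every condition and nothing was tested. Library depths were not analysed here, so for a gene reached at 2.5 μM and not at 1 μM, such as CD44, dose and depth cannot be told apart.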

Other observations

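Protein-coding genes that start within 1 Mb of a marker's gene start were read in the same way, against the 10.8% of all protein-coding genes reached at 2.5 μM. At 2.5 μM, 3 of the 11 other protein-coding genes around BMI1 were reached, COMMD3 and COMMD3-BMI1 through the same region and SKIDA1 through a region 800 kb upstream. Around CD44, 2 of 11 were reached, EHF 508 kb upstream and TRIM44 522 kb downstream. Around ALDH1A1, 2 of 4 were reached, ANXA1 and ZFAND5, the latter 714 kb downstream. Around PROM1 the number was 3 of 10, around PROCR 5 of 36 and around KLF4 1 of 2, while it was 0 of 13 around ALDH1A3, 0 of 2 around SOX2, 0 of 1 around SOX9 and 0 of 79 around NOTCH1. The region at EHF was 10349 bp long at 1 μM and 9899 bp at 2.5 μM, and that at FBXL5 and FAM200B near PROM1 was 7049 bp and 6899 bp, so both were slightly shorter on the list of the higher dose. The ANXA1 region had the same bounds on both lists.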
